A study of Mus musculus with 9 samples.

Results

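The 10 genes described here mark the crypt base or feed back on Wnt signalling, and were followed through the colon of mice with dextran sulfate sodium (DSS) colitis. They were Lgr5, Ascl2, Smoc2, Axin2, Sox9, Prom1, Lrig1, Rnf43, Znrf3 and Ephb2, and were chosen by symbol, so 10 of the 36256 genes of the deposited table are described. All 10 matched 1 row each and all 10 passed the filter on low counts. The study sequenced poly(A) RNA from whole colon tissue of 9 C57BL/6 mice, 3 per group. NC mice were the controls of the series. MC mice had DSS, which injures the colon epithelium, in a model of 9 days. LRWE mice had the same DSS model and, per the design text, Linderae Radix extract at 2.0 g/kg, although their treatment label names DSS alone. The 3 mice of a group were drawn at random from a larger group. Age, sex and the stretch of colon taken were not given in the sources used here. By its title the study asks whether the extract eases colitis through JAK/STAT signalling, a question that these genes do not address directly.

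The colon epithelium is renewed from stem cells at the base of the crypts. Wnt ligands bind Frizzled and LRP receptors there, which frees beta-catenin from a destruction complex so that it can act with TCF/LEF factors in the nucleus. R-spondins bind the receptor Lgr5 and its relatives and strengthen the signal by removing the ligases Rnf43 and Znrf3, which otherwise clear Frizzled from the cell surface. Axin2, Rnf43 and Znrf3 are themselves induced by Wnt and act as brakes, and Lgr5, Ascl2, Sox9 and Ephb2 are further known targets of the pathway in the crypt.

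Promoters of 6 of the 10 genes were in the RefSeq table (GRCm38.p6), as 8 windows of 300 bases. Of these, 3 are shown because their genes passed the test for a change in RNA below, Ascl2 and Axin2 downwards and Prom1 upwards. Capitals mark the TCF/LEF core CTTTGA, searched on both strands (TCAAAG on the other), which was present in 1 of the 8 windows and in 5257 of the 32851 promoters of the table. The 1 match lay in 1 of the 2 Prom1 windows and began at base 9 from the transcript start. The Prom1 window with the match is the 1 shown, and the other, at chr5:44101687-44101986, had none. A match describes the letters only, and a window without one says nothing about binding. The Ascl2 window lay at chr7:142969215-142969514 on the minus strand and that of Axin2 at chr11:108920099-108920398 on the plus strand. The Prom1 window shown lay at chr5:44094719-44095018 on the minus strand. The G and C content of the 3 was 67.0%, 70.0% and 50.3%, against a median of 52.7% over all promoters. The Prom1 window not shown had 57.0%.
Ascl2: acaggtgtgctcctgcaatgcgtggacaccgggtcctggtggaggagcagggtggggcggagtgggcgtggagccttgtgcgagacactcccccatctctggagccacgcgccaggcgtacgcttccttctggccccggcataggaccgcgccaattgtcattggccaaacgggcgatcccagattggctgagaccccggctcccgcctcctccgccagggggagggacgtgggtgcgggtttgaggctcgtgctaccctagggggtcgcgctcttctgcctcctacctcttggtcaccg
Axin2: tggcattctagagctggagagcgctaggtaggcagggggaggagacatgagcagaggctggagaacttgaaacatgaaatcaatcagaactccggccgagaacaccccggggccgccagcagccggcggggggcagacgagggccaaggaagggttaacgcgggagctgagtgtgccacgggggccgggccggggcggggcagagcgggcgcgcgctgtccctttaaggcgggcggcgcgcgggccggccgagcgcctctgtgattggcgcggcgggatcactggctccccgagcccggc
Prom1: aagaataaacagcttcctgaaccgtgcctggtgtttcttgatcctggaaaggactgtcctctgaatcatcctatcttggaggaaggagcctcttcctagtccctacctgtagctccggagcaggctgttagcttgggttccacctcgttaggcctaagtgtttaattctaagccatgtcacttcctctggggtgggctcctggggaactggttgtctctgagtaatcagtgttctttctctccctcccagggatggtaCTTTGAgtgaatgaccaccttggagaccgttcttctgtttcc

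Library totals ran from 59042063 to 65042857 counts. LRWE 2 stood apart, with 21218 genes that had a count against 23238 to 26019 in the other 8 libraries, the lowest quality weight (0.247), and no count for Lgr5 and Ascl2. Levels below are CPM, counts per 1000000 after scaling by the trimmed mean of M values (TMM), and FPKM, the authors' length-scaled values, is used where genes are compared with each other. Changes are log2 fold changes ± standard error (SE) from edgeR, with n = 3 mice per group, and genes count as called where the Benjamini-Hochberg adjusted p over the 21767 genes tested was below 0.05. In whole tissue, fewer cells of a type and less RNA per cell cannot be told apart.

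In control colon the FPKM levels of the 10 genes spanned from 12.7 ± 1.70 for Prom1 to 0.779 ± 0.145 for Lgr5 (mean ± SD, n = 3 mice). Lrig1 at 12.3 ± 1.89 overlapped with Prom1, then came Ascl2 (7.66 ± 2.60), Sox9 (5.15 ± 0.379), Smoc2 (4.02 ± 0.738), Axin2 (2.89 ± 0.212), Rnf43 (2.18 ± 0.453), Ephb2 (1.13 ± 0.186) and Znrf3 (0.949 ± 0.262). Ascl2 overlapped with Sox9, Ephb2 with Znrf3 and Znrf3 with Lgr5, while the other neighbours did not overlap. In MC the FPKM order began with Prom1, Lrig1 and Smoc2 and ended with Ascl2 (0.194 ± 0.135) and Lgr5 (0.0406 ± 0.0194), whose ranges lay apart from each other and below those of the other 8. In LRWE Prom1 (68.3 ± 4.31) lay above every other member, followed by Lrig1 at 5.98 ± 2.54 and Sox9 at 2.71 ± 0.824.

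**Figure D1:**
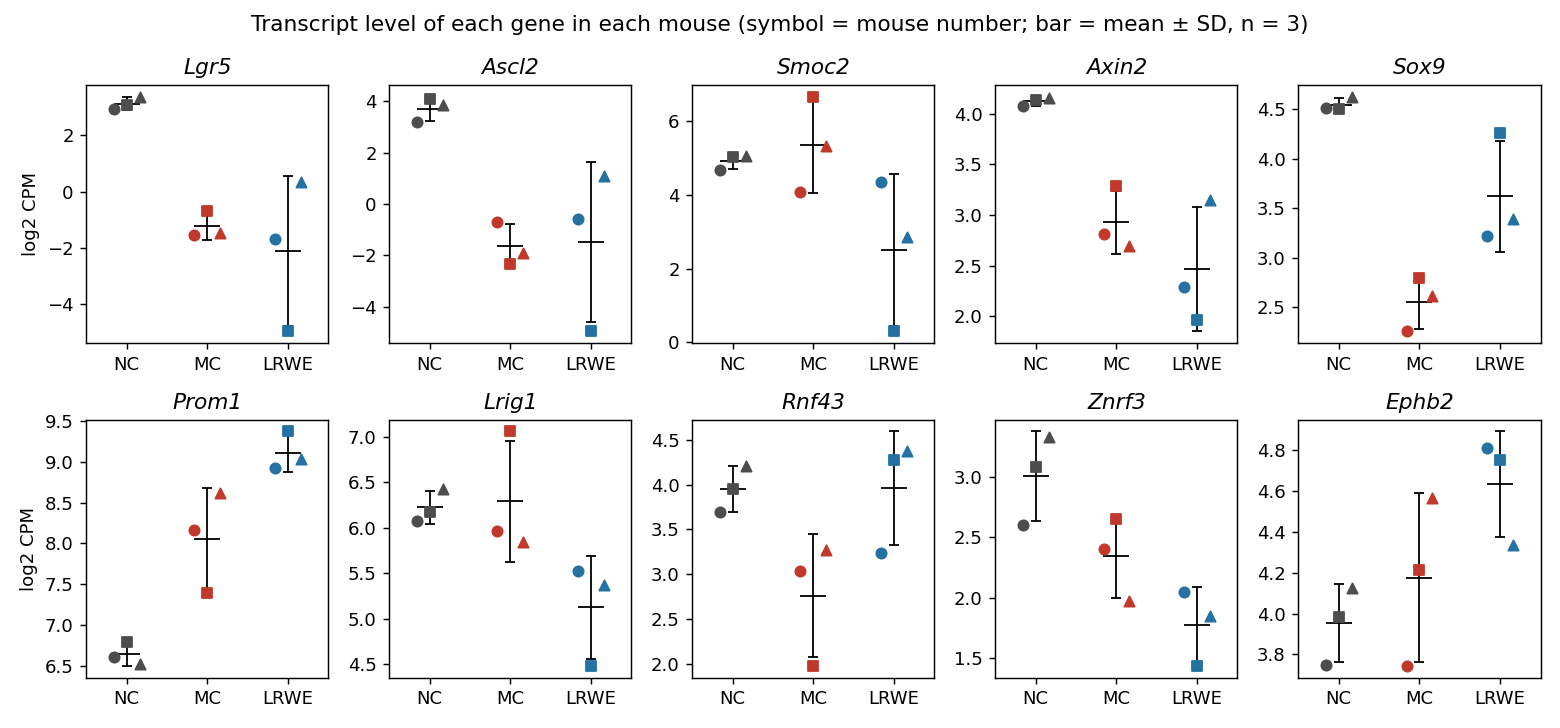
Each panel plots the log2 CPM of 1 gene (vertical axis, prior count 2) in NC, MC and LRWE mice, with a symbol per mouse and a bar for mean ± SD, n = 3. Lgr5, Ascl2, Axin2 and Sox9 are lower in every MC mouse than in every NC mouse, and Prom1 is higher. LRWE 2 lies at the bottom for Lgr5 and Ascl2, where it had no count.

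MC against NC compares mice with DSS and mice without it. The groups also differed in markers of colon position, given below, and the part of position was not tested. Ascl2 and Sox9 fell and Prom1 rose, so 2 of the 10 genes were called lower and 1 higher. Over all genes tested, 3.53% were called lower and 2.84% higher. The median log2 fold change of the 10 was -0.89, against -0.01 over all genes. Values of the MC and NC mice did not overlap for 5 genes that were lower and 1 that was higher, where 20.1% and 19.5% of all genes did not overlap in those directions.

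Among the stem cell genes, Ascl2 (ENSMUSG00000009248, chromosome 7, 142520566 to 142523001, minus strand, build not named by the files) encodes a basic helix-loop-helix factor that maintains the Lgr5-positive state. Its level was 9.10, 17.1 and 14.3 CPM in NC 1 to 3 and 0.584, 0.167 and 0.233 CPM in MC 1 to 3. The groups lay far apart, since the highest MC mouse held 38 counts and the lowest NC mouse 523. The change was -5.36 ± 1.31 (95% interval -8.32 to -2.40, edgeR adjusted p = 0.0457). This call was lost without any 1 of the 6 NC and MC libraries (adjusted p 0.103 to 0.146) and with scaling by library totals (0.0551) or with no low-count filter (0.0581). It was called in 9 of the 19 alternatives and kept its direction in all 19.

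Lgr5 (ENSMUSG00000020140, chromosome 10, 115286216 to 115423685, minus strand) is the R-spondin receptor that defines cycling crypt base stem cells. It had 7.52, 8.44 and 10.3 CPM in the NC mice and 0.307, 0.585 and 0.332 CPM in the MC mice, again with no overlap. Its log2 fold change was -4.41 ± 1.16, with a 95% interval of -7.05 to -1.78, and the edgeR adjusted p of 0.0567 did not pass the threshold. It passed in DESeq2 (adjusted p = 0.000415), in limma with voom weights (0.00813) or on FPKM (0.00192 and 0.00360), and in edgeR with only the 2 groups compared (0.00199). In edgeR its adjusted p was 0.00459 to 0.0408 when LRWE 2 or LRWE 3 was left out, libraries that are not part of this comparison but share the estimate of spread. Lgr5 was called in 7 of the 19 alternatives (adjusted p up to 0.166), and was not called when any NC or MC library was left out. The counts behind it were 20, 42 and 20 in the MC mice and 432 to 650 in the NC mice. Its relative Lgr4, a receptor found more widely in the epithelium, fell from 189.7 to 101 CPM (-0.91 ± 0.22, adjusted p = 0.0454). The ratio of Lgr4 to Lgr5 FPKM was 29.0 to 44.3 in NC and 373 to 505 in MC, a description of unequal change with no test.

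Smoc2 (ENSMUSG00000023886, chromosome 17, 14499768 to 14625052, plus strand) encodes a secreted calcium-binding matrix protein found in mouse crypt base cells. It had 25.4, 32.5 and 33.5 CPM in NC and 16.7, 102 and 40.0 CPM in MC. The MC mice lay on both sides of the NC mice, and the change was 0.79 ± 0.86 (edgeR adjusted p = 0.634). Without MC 2 it was -0.10. The fibroblast list (6 genes tested, 0 called by edgeR, at an unadjusted p under 0.05 or by DESeq2) summed to 525 CPM in MC 1, 1563 CPM in MC 2 and 760 CPM in MC 3, against 1020 to 1529 CPM in NC. MC 2 was thus the highest MC mouse for Smoc2 and for the fibroblast list, and the part of fibroblasts in the Smoc2 values was not tested.

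Lrig1 (ENSMUSG00000030029, chromosome 6, 94581510 to 94677139, minus strand), a membrane protein that restrains ErbB receptors and marks a broad set of crypt progenitors, was also highest in MC 2. Its level was 67.3, 72.3 and 86.0 CPM in NC and 62.3, 134 and 57.6 CPM in MC. The change of 0.17 ± 0.36 (edgeR adjusted p = 0.824) turned to -0.32 without MC 2.

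Prom1 (ENSMUSG00000029086, chromosome 5, 44150962 to 44259300, minus strand), a glycoprotein of membrane protrusions also known as CD133, was the member that rose. It had 97.2, 111 and 91.7 CPM in NC and 286.9, 168 and 392.2 CPM in MC, with MC 2 the lowest of the MC mice but still above every NC mouse. The log2 fold change was 1.498 ± 0.288 (edgeR adjusted p = 0.0202). Leaving out MC 2 kept this call, and leaving out any other NC or MC library ended it (adjusted p 0.0584 to 0.0955).

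Sox9 (ENSMUSG00000000567, chromosome 11, 112673050 to 112678586, plus strand) encodes a crypt transcription factor of the SOX family. Its level fell from 22.7, 22.6 and 24.6 CPM in NC to 4.75, 6.89 and 6.06 CPM in MC. The 3 NC mice lay close together, and each held more than any MC mouse. The change was -1.98 ± 0.30 (edgeR adjusted p = 0.00900), and it held in each of the 9 fits that left out 1 library. Sox9 is also expressed by enteric glia, whose list with neurons (6 of 6 genes tested, 1 called, higher) summed to 110 to 141 CPM in NC and 406 to 611 CPM in MC.

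None of the feedback genes was called by edgeR, while DESeq2 called Axin2. Axin2 (ENSMUSG00000000142, chromosome 11, 108811175 to 108841609, plus strand), the inducible scaffold of the destruction complex, had 16.8, 17.6 and 17.9 CPM in NC and 6.97, 9.71 and 6.43 CPM in MC. The groups did not overlap and the change was -1.18 ± 0.32 (edgeR adjusted p = 0.0639, and 0.0227 to 0.0362 without LRWE 2 or LRWE 3). Rnf43 (ENSMUSG00000034177, chromosome 11, 87553548 to 87625366, plus strand), the first of the Frizzled ligases, had 12.9, 15.5 and 18.5 CPM in NC and 8.14, 3.90 and 9.62 CPM in MC. Its values did not overlap either, but the change of -1.11 ± 0.39 did not pass (edgeR adjusted p = 0.124). Znrf3 (ENSMUSG00000041961, chromosome 11, 5226324 to 5394847, minus strand), the related ligase, had 6.04, 8.43 and 10.03 CPM in NC and 5.27, 6.25 and 3.90 CPM in MC. Here MC 2 lay above NC 1, and the change was -0.67 ± 0.31 (edgeR adjusted p = 0.228).

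Ephb2 (ENSMUSG00000028664, chromosome 4, 136374850 to 136563299, minus strand), a receptor tyrosine kinase that keeps crypt cells in place by meeting ephrin-B ligands higher up, was not called either. It had 13.4, 15.8 and 17.4 CPM in NC and 13.4, 18.6 and 23.7 CPM in MC, so the groups overlapped (0.25 ± 0.24, edgeR adjusted p = 0.573). The related receptor Ephb3, named here after its values were seen, had 29.6 CPM in NC and 9.997 CPM in MC (-1.57 ± 0.39, adjusted p = 0.0503). The FPKM ratio of Ephb2 to Ephb3 was 0.236 to 0.351 in NC and 0.701 to 1.29 in MC. Among the ligands, Efnb1 (0.23 ± 0.27, adjusted p = 0.671) and Efnb2 (-0.02 ± 0.19, adjusted p = 0.971) had small log2 fold changes, and 0 of 3 ephrin-B genes was called by edgeR.

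**Figure D2:**
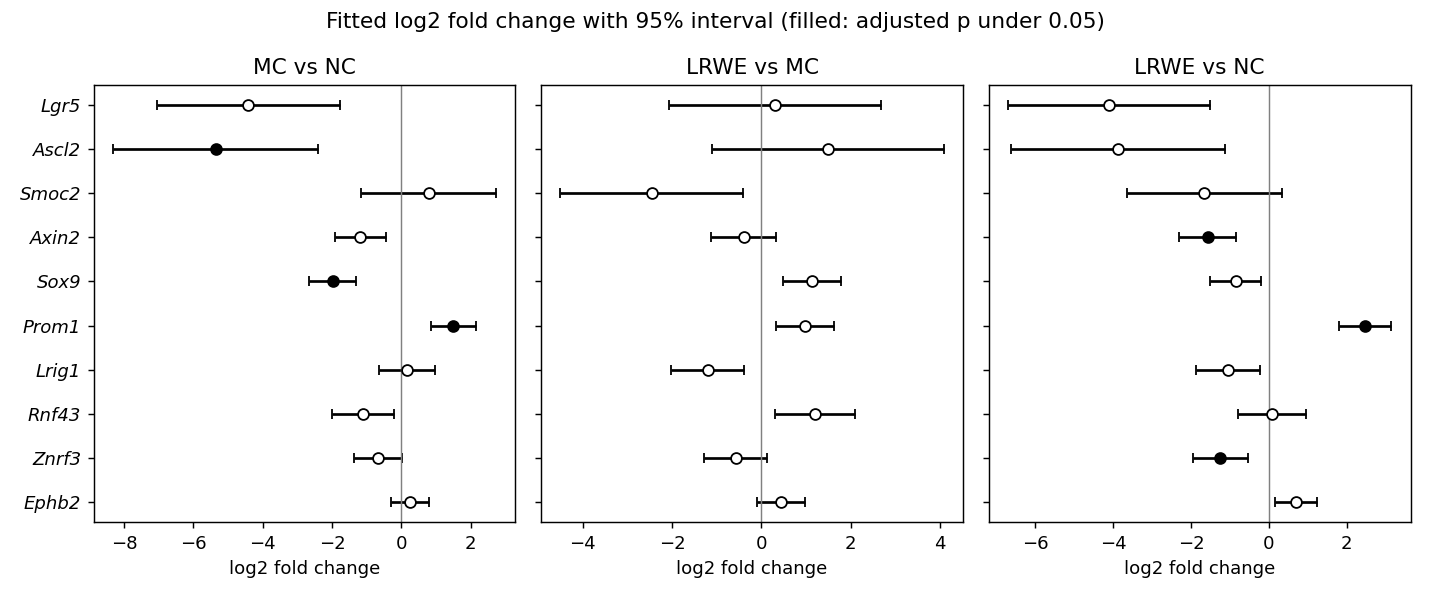
Points are fitted log2 fold changes of the 10 genes (horizontal axis) with 95% intervals in the 3 comparisons, filled where the adjusted p was under 0.05. Filled points are Ascl2, Sox9 and Prom1 for MC against NC, none for LRWE against MC, and Axin2, Prom1 and Znrf3 for LRWE against NC.

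The level of the epithelium and the position along the colon were read from marker lists in the same libraries. The pan-epithelium list (8 genes tested, no gene at 0 in any library, 0 called by edgeR for MC against NC, 3 at an unadjusted p under 0.05 and 1 by DESeq2) summed to 6910 to 9190 CPM in NC and 5029 to 9340 CPM in MC, which overlap. Scaled to the counts of that list in place of TMM, the change of Ascl2 was -5.10 (edgeR adjusted p = 0.09999), that of Lgr5 was -4.05 (adjusted p = 0.137), that of Sox9 was -1.65 (adjusted p = 0.0645) and that of Prom1 was 1.70 (adjusted p = 0.00574). In this scale Sox9 had 2470 to 3567 counts per 1000000 epithelial counts in NC and 649 to 1370 in MC, and Lgr5 had 818 to 1493 and 35.6 to 116, so neither gene's ranges met. The list of distal colon position (5 genes) summed to 435 to 613 CPM in the NC mice. MC held 16.8 to 148 CPM and LRWE 4.76 to 41.0 CPM, with 3 of the 5 genes at 0 in LRWE 2 and 2 of the 5 at 0 in LRWE 3. For MC against NC, 0 of these 5 were called by edgeR and 0 by DESeq2. Of them 2 had an unadjusted p under 0.05, and 4 were called with voom weights. For LRWE against NC edgeR called 3 lower. The list of proximal position (5 genes, 4 called higher in MC) summed to 33.6 to 45.4 CPM in the NC mice, while MC held 29.4 to 324 CPM and LRWE 218 to 577 CPM. MC 2 had 29.4 CPM of the proximal list, below the NC mice, and 148 CPM of the distal list, also below the NC mice. Within the proximal list, Hoxb9 alone was lower in MC 2 (10.6 CPM) than in the NC mice (24.9 to 37.9 CPM). The 4 called genes, Hoxb6, Hoxb7, Hoxb8 and Osr2, were each higher in MC 2 than in every NC mouse. Hoxb6 had 11.6 CPM against 4.11 to 4.55 CPM, while Hoxb8 had 1.39 CPM against at most 1.29 CPM. The part of colon position in the changes of the 10 genes was not tested.

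**Figure D3:**
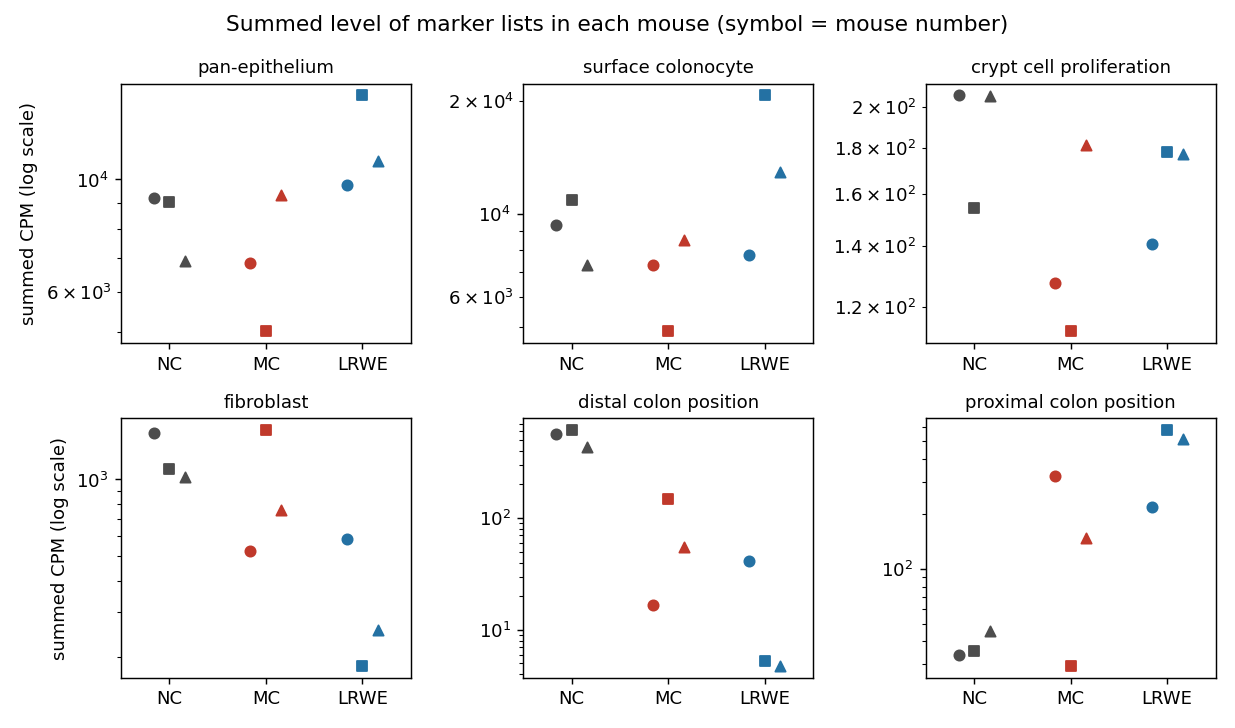
Summed CPM of 6 marker lists (vertical axis, log scale) in each mouse of NC, MC and LRWE, with a symbol per mouse. The distal list is highest in the 3 NC mice and the proximal list is highest in the LRWE mice and MC 1, while the pan-epithelium list of NC and MC overlaps.

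Of the 97 tested genes of the 10 pathway lists, 9 were called by edgeR for MC against NC, against 6.37% of all genes. At an unadjusted p under 0.05 there were 30, and DESeq2 called 23, against 24.3% of all genes and 19.2% of the 19554 genes to which DESeq2 gave an adjusted p. Among receptors, Fzd3, a Frizzled for Wnt ligands, rose from 3.98 to 13.1 CPM (1.72 ± 0.23, edgeR adjusted p = 0.00664), and with Lgr4, which fell, it made 2 called genes of 15 tested and 16 listed. Of 8 TCF/LEF factors and co-activators, the repressor-type factor Tcf7l1 fell from 39.1 to 12.9 CPM (-1.60 ± 0.18, adjusted p = 0.00436) and the beta-catenin partner Bcl9 rose from 22.2 to 36.7 CPM (0.72 ± 0.13, adjusted p = 0.0178). The 3 NC mice held 33.8 to 44.1 CPM of Tcf7l1, against 11.8 to 14.7 CPM in the MC mice.

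Ligands and the destruction complex had no called gene in edgeR. Of 9 Wnt ligands tested, Wnt5a, a ligand of stromal cells, had 8.70 CPM in NC and 17.2 CPM in MC (0.99 ± 0.29, edgeR adjusted p = 0.0801), and Wnt6 had 0.03 ± 0.47 (adjusted p = 0.978). The R-spondin Rspo3, made by stromal cells near the crypt, had 14.9, 11.6 and 10.2 CPM in NC and 5.33, 50.0 and 9.07 CPM in MC (0.81 ± 0.88, adjusted p = 0.635), and Rspo2 had 1.60 ± 1.20 (adjusted p = 0.462). MC 2 carried the high Rspo3 value, as it did that of Smoc2. Of the 11 genes of the destruction complex, beta-catenin itself (Ctnnb1) had 647 CPM in NC and 601 CPM in MC (-0.11 ± 0.20, adjusted p = 0.792), and Gsk3a had 0.72 ± 0.22 (adjusted p = 0.0795). At an unadjusted p under 0.05, Wnt ligands had 3 of 9 genes, R-spondins 0 of 3, the destruction complex 3 of 11, ephrin-B ligands 0 of 3 and the proliferation list 5 of 12, where 24.3% of all genes did. DESeq2 called 3, 0, 3, 0 and 2 of them in the same order.

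Of 14 Wnt antagonists tested, Sfrp2, a secreted Frizzled-related decoy, fell from 12.8 to 3.98 CPM (-1.69 ± 0.36, edgeR adjusted p = 0.0307), and it was the 1 called gene. The most abundant antagonists were Dkk3, with 1.24 ± 0.79 (adjusted p = 0.377), and Sfrp1, with 0.86 ± 0.69 (adjusted p = 0.500). MC 2 held the highest level of each, with 261 CPM of Dkk3 against 67.5 and 68.7 CPM in the other MC mice, and 84.3 CPM of Sfrp1 against 25.6 and 37.9 CPM. Among 10 other target genes, the receptor Ephb4 was the 1 called gene and fell from 58.5 to 31.6 CPM (-0.89 ± 0.21, adjusted p = 0.0434), and Jun had 0.49 ± 0.17 (adjusted p = 0.120).

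Other genes of the crypt base went in both directions, with 2 of 12 tested lower and 1 higher. Hopx, a homeodomain-only protein described in reserve stem cells, fell from 15.2 to 3.36 CPM (-2.18 ± 0.25, edgeR adjusted p = 0.00450). Reg4, a lectin of deep crypt secretory cells, which support the stem cells of the mouse colon, fell from 88.8 to 3.42 CPM (-4.70 ± 0.84, adjusted p = 0.0164). Kit, a receptor kinase of those secretory cells and also of pacemaker cells in the muscle wall, rose from 27.6 to 75.5 CPM (1.45 ± 0.30, adjusted p = 0.0251). The 12 proliferation genes had a median of -0.70 and no call by edgeR, with summed levels of 155 to 206 CPM in NC and 113 to 182 CPM in MC. Its most abundant members, Pcna and Ccna2, had -0.24 ± 0.21 (adjusted p = 0.527) and 0.40 ± 0.34 (adjusted p = 0.535). Of the 12, 10 had a log2 fold change below 0, among them all 5 with an unadjusted p under 0.05, such as Mki67 (-0.89 ± 0.36, adjusted p = 0.168) and Mcm6 (-0.92 ± 0.28, adjusted p = 0.0830), which were named after their values were seen.

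**Figure D4:**
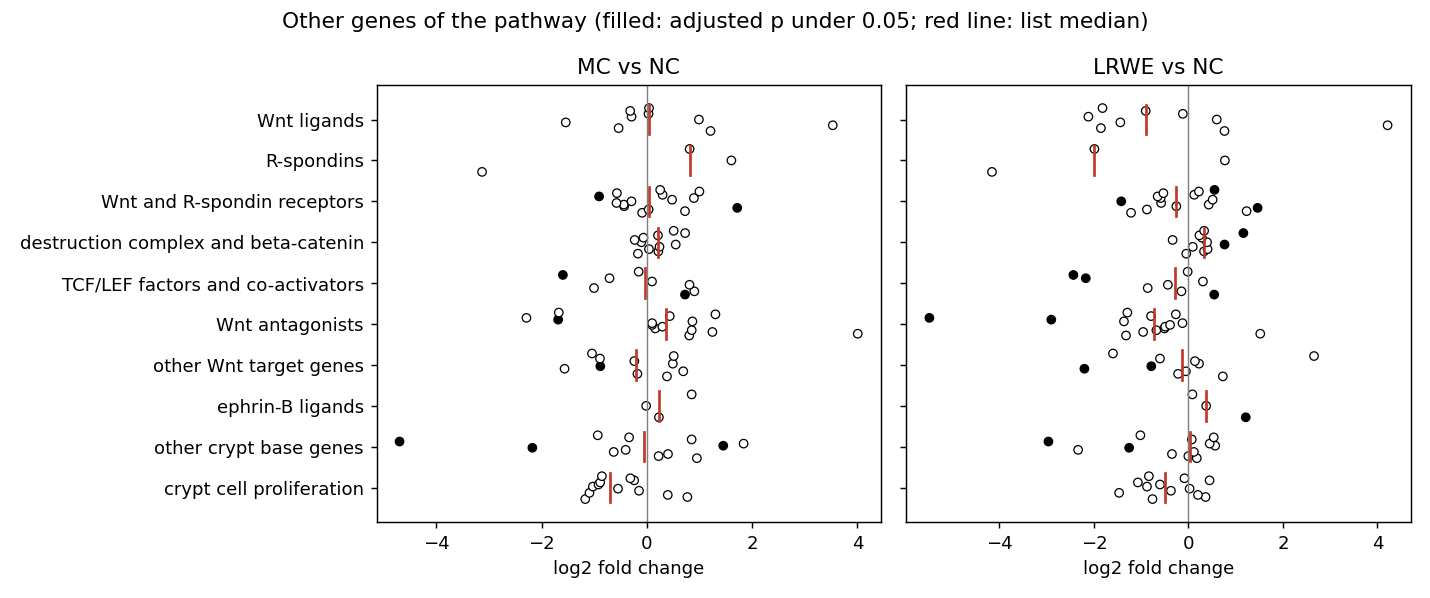
Log2 fold changes (horizontal axis) of the tested genes of 10 pathway lists for MC against NC and LRWE against NC, filled where the adjusted p was under 0.05, with the list median in red. Of 97 genes, 9 are filled for MC against NC and 15 for LRWE against NC, with Reg4 and Hopx on the left and Fzd3 on the right in each. Over all genes tested, 6.37% were called for MC against NC, and 6.04% higher and 3.97% lower for LRWE against NC.

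The second comparison, LRWE with MC, sets mice with DSS and the extract beside mice with DSS alone. The proximal position list summed to 218 to 577 CPM in LRWE and 29.4 to 324 CPM in MC. The distal list summed to 4.76 to 41.0 CPM in LRWE and 16.8 to 148 CPM in MC, and the part of position was not tested. None of the 10 genes was called by edgeR, and of all genes 0% were called higher and 0% lower. At an unadjusted p under 0.05 there were 5 of the 10, against 23.6% of all genes. DESeq2 called 5 of the 10, namely Smoc2, Sox9, Prom1, Lrig1 and Rnf43, and 16.4% of the 13289 genes to which it gave an adjusted p. Without LRWE 1, edgeR called 3 of the 10, namely Smoc2, Sox9 and Rnf43 (adjusted p 0.0368 to 0.0477), and 10.6% of all genes. Groups did not overlap for 2 genes higher in LRWE and 1 lower, where 14.5% and 14.1% of all genes did not overlap in those directions. The median over the 10 was 0.37, against -0.03 over all genes.

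Lgr5 had 0.277, 0 and 1.23 CPM in LRWE 1 to 3, and Ascl2 had 0.634, 0 and 2.11 CPM. LRWE 3 was above every MC mouse for both genes and LRWE 2 was below them. LRWE 1 was above every MC mouse for Ascl2 and below every MC mouse for Lgr5, both by few counts. It held 39 counts of Ascl2 against 38 in MC 1, and 17 of Lgr5 against 20 in MC 1 and in MC 3. The counts of 0 in LRWE 2 allow up to 0.0554 CPM each (3 counts, counting error only). The log2 fold changes were 0.31 (95% interval -2.07 to 2.68, edgeR adjusted p = 0.885) for Lgr5 and 1.48 (-1.11 to 4.08, adjusted p = 0.450) for Ascl2, so the intervals span changes in both directions. Without LRWE 3 they were -1.53 and -0.03, and scaled to pan-epithelium counts Lgr5 had -0.46.

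Sox9 had 9.24, 19.1 and 10.4 CPM in LRWE, above the 4.75 to 6.89 CPM of the MC mice in all 3. Its difference was 1.13 ± 0.29 (edgeR adjusted p = 0.164). Prom1 had 484, 663 and 522 CPM in LRWE, again above all MC mice (0.98 ± 0.28, edgeR adjusted p = 0.164). Scaled to pan-epithelium counts, the differences were smaller, at 0.25 for Sox9 and 0.29 for Prom1. The pan-epithelium list summed to 9731 CPM in LRWE 1, 14638 in LRWE 2 and 10853 in LRWE 3, each above every MC mouse. Of its 8 genes, 0 were called by edgeR, 7 had an unadjusted p under 0.05 and DESeq2 called 3.

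Neither Rnf43 nor Znrf3, which act on the same receptors, was called. Rnf43 had 9.37, 19.4 and 20.7 CPM in LRWE, where LRWE 1 lay within the MC range (1.19 ± 0.39, edgeR adjusted p = 0.165). Znrf3 had 4.10, 2.68 and 3.57 CPM, where LRWE 1 lay above MC 3 (-0.57 ± 0.31, edgeR adjusted p = 0.285). The FPKM ratio of Rnf43 to Znrf3 was 2.57, 2.21 and 2.21 in the NC mice. It was 1.86, 0.749 and 2.97 for MC, and for LRWE 2.75, 8.74 and 6.996. LRWE 2 and LRWE 3 held the highest of these ratios, which were chosen after the values were seen and were not tested.

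Lrig1 and Smoc2 had the most negative log2 fold changes of the 10 genes. Lrig1 had 46.1, 22.3 and 41.4 CPM, below every MC mouse (-1.21 ± 0.37, edgeR adjusted p = 0.164). Smoc2 had 20.5, 1.20 and 7.20 CPM, with LRWE 1 above MC 1 (-2.45 ± 0.91, edgeR adjusted p = 0.175, and -1.55 without MC 2). The fibroblast list summed to 585, 185 and 256 CPM in the same LRWE mice and its lowest value fell on LRWE 2, as for Smoc2 and Lrig1. Of its 6 genes, 0 were called by edgeR, 6 had an unadjusted p under 0.05 and DESeq2 called 3. The part of fibroblasts in Smoc2 and Lrig1 was not tested. Axin2 had 4.86, 3.86 and 8.84 CPM (-0.40 ± 0.32, edgeR adjusted p = 0.470) and Ephb2 had 28.03, 27.0 and 20.2 CPM (0.44 ± 0.24, edgeR adjusted p = 0.289). Both overlapped with MC, and Ephb2 had -0.31 when scaled to pan-epithelium counts. Of the 97 tested genes of the 10 pathway lists, 0 were called by edgeR, 31 had an unadjusted p under 0.05 and DESeq2 called 17. Over all genes the shares were 0%, 23.6% and, of the 13289 with a DESeq2 adjusted p, 16.4%.

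The third comparison, LRWE with NC, shares its control mice with the first, so the 2 are not independent. Axin2 and Znrf3 fell and Prom1 rose, that is 2 of the 10 called lower and 1 higher, where 3.97% and 6.04% of all genes were called in those directions. Groups did not overlap for 7 genes that were lower and 2 that were higher, where 20.5% and 16.6% of all genes did not overlap in those directions. Rnf43 was the member whose ranges met. The median of the 10 was -1.14, against -0.05 over all genes.

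Prom1 had the lowest p of the 10 genes, with 484 to 663 CPM in the LRWE mice and 91.7 to 111 CPM in the NC mice (2.48 ± 0.30, edgeR adjusted p = 0.00419). It was called in all 19 alternatives. Axin2 went from 17.4 to 5.85 CPM (-1.57 ± 0.33, edgeR adjusted p = 0.0212), a call lost without NC 1, NC 2 or NC 3 (adjusted p 0.0724 to 0.0760). Znrf3 went from 8.17 to 3.45 CPM (-1.24 ± 0.31, edgeR adjusted p = 0.0402), and its call was lost in 7 of the 9 fits that left out 1 library, all but those without MC 2 or LRWE 1 (adjusted p 0.0522 to 0.151).

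The stem cell genes Lgr5 and Ascl2 were below every NC mouse in each LRWE mouse but did not pass in edgeR, while DESeq2 called both (adjusted p = 0.000939 and 0.00450). Their log2 fold changes were -4.11 ± 1.15 (edgeR adjusted p = 0.0550) and -3.87 ± 1.21 (adjusted p = 0.0755). Lgr5 passed in edgeR without LRWE 2 or LRWE 3 (adjusted p = 0.0234 and 0.0380) and Ascl2 without LRWE 2 (adjusted p = 0.0335). Sox9 had 12.9 CPM in LRWE and 23.3 CPM in NC (-0.85 ± 0.29, adjusted p = 0.0943, and 0.0178 without LRWE 2). For Sox9 the change from NC was thus -1.98 in MC and -0.85 in LRWE, and the test between these is the 1.13 given above, which did not pass.

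Of the remaining members, Lrig1 had -1.04 ± 0.36 (edgeR adjusted p = 0.105, and 0.0387 without MC 2) and Smoc2 had -1.66 ± 0.88 (adjusted p = 0.269). Ephb2 had 0.69 ± 0.24 (edgeR adjusted p = 0.101), with all LRWE mice above all NC mice. Rnf43 had 15.6 CPM in NC and 16.5 CPM in LRWE, a log2 fold change of 0.08 with a 95% interval of -0.80 to 0.96 (edgeR adjusted p = 0.926). Its sign turned under other scalings, at -0.01 with library totals and -0.46 with pan-epithelium counts.

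In the rest of the pathway, Tcf7l1 fell from 39.1 to 7.24 CPM (-2.43 ± 0.18, edgeR adjusted p = 0.00129) and Tcf7, a TCF factor also abundant in T cells, fell from 6.49 to 1.44 CPM (-2.17 ± 0.50, adjusted p = 0.0297). Bcl9 rose by 0.55 ± 0.13 (adjusted p = 0.0346), so 2 of the 8 TCF/LEF factors and co-activators were lower and 1 higher. Receptors had Fzd3 (1.46 ± 0.23, adjusted p = 0.00820) and Ryk (0.55 ± 0.14, adjusted p = 0.0415) higher and Fzd7 (-1.42 ± 0.30, adjusted p = 0.0237) lower among 15 tested. In the destruction complex Gsk3a (1.16 ± 0.22, adjusted p = 0.0148) and Csnk1a1 (0.76 ± 0.18, adjusted p = 0.0343), both kinases that mark beta-catenin for removal, rose among 11.

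Of 14 Wnt antagonists tested, 2 fell. Sfrp2 fell from 12.8 to 1.71 CPM (-2.90 ± 0.38, edgeR adjusted p = 0.00485), and Sfrp4, with 1.95 to 7.05 CPM in NC, was at 0 in LRWE 2 and LRWE 3 and at 0.260 CPM in LRWE 1 (adjusted p = 0.0380). The target genes had Ephb3 lower, from 29.6 to 6.43 CPM (-2.20 ± 0.40, adjusted p = 0.0140), and Ephb4 lower (-0.79 ± 0.21, adjusted p = 0.0494), among 10. The ephrin Efnb1 rose from 46.5 to 108 CPM (1.21 ± 0.28, adjusted p = 0.0290) as the 1 called gene of 3, and Efnb2 had 0.37 ± 0.19 (adjusted p = 0.237). Ephb2 and Ephb3 thus stood at an FPKM ratio of 2.12, 3.96 and 1.22 in LRWE, against 0.236 to 0.351 in NC. Hopx (-1.25 ± 0.25, adjusted p = 0.0177) and Reg4 (-2.96 ± 0.77, adjusted p = 0.0444) fell among 12 crypt base genes. Wnt ligands, R-spondins and proliferation genes had 0 calls by edgeR, with 2, 1 and 2 genes at an unadjusted p under 0.05 and 2, 0 and 2 called by DESeq2, which called 20.8% of all genes with an adjusted p. Of all genes, 26.9% had an unadjusted p under 0.05.

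Likeness of pattern was measured as the root mean square difference of log2 CPM, each gene centred on its mean over the 9 libraries. Among the 10 genes, Axin2 and Znrf3 were the closest pair (0.39), followed by Lrig1 and Znrf3 (0.41), and Lgr5 and Ascl2 differed by 0.82. Of 16659 candidate genes, those nearest to Lgr5 were the immunoglobulin segments Igkv1-117 (0.65) and Igkv6-15 (0.72) and the gene Scel (0.76). Ascl2 was nearest to Lgr5, then to the segments Igkv8-24 (0.88) and Igkv1-117 (1.16). Immunoglobulin segments share reads, so their values are uncertain, and the B and plasma cell list summed to 196 to 664 CPM in NC and 12.4 to 110.4 CPM in MC. Sox9 was nearest to Slc26a2, a sulfate transporter (0.29), Gprin3 (0.29) and Pllp (0.30).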

How the data were processed

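The deposited table holds, for each gene and library, an FPKM value (fragments scaled to gene length and library size) and an estimated count, all of them whole numbers. Per the submitters' processing notes, the authors used cutadapt 1.9, HISAT2 2.0.4, StringTie 1.3.4d and edgeR. The notes name a human build, which cannot be that of mouse gene identifiers, so the coordinates are given as deposited. Per the labels' protocols, poly(A) RNA was selected.

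Counts were fitted here with edgeR 4.0.16 (quasi-likelihood test, TMM scaling, all 9 libraries, no covariate, filterByExpr, Benjamini-Hochberg adjustment over 21767 genes; R 4.3.3). SE is the log2 fold change divided by the root of F. Log2 CPM used a prior count of 2. DESeq2 1.42.0, limma 3.58.1 and leaving out each library were among 19 alternatives. The procedure was also run on simulated counts, drawn with the spread fitted here and with changes set in MC alone. No shift of colon position and no outlying library was simulated, so that run cannot support the calls in these data. Totals were 59042063 to 65042857 counts, and intervals for counts cover counting error only. The p-values set differences between groups against the spread between these mice. Labels do not say how replicates were housed or processed, so a cage or batch shared by a group could not be told apart from the group.

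The 10 genes and the 167 other listed genes were chosen with earlier results of these data known. All 10 genes are named, with up to 4 called genes of each pathway list by p, or its 2 most abundant genes by FPKM where fewer than 2 were called. Replicate numbers were not used to pair the mice in the main fit, and the labels do not say whether they pair them.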

Additional observations from a re-analysis of the deposited data

How the results depend on the processing

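Of 570 single-gene values under 19 alternatives, 471 kept direction and side of the threshold, 44 passed only in the alternative, 36 no longer passed and 19 turned sign. The number of the 10 genes called for MC against NC (3) was 1 with pan-epithelium scaling, 5 with DESeq2, 5 with only the 2 groups compared, 5 with voom weights and 1 to 5 without 1 library. Calls over all genes moved the same way in the 4 named fits. From 1386 they went to 403 with pan-epithelium scaling, 3754 with DESeq2, 3781 with only the 2 groups and 5205 with voom weights. Without LRWE 3 they fell to 1029 while 5 of the 10 genes were called. For LRWE against MC the number of the 10 genes called (0) was 5 with DESeq2, 3 with voom weights and 0 to 3 without 1 library. For LRWE against NC (3) it was 1 with pan-epithelium scaling, 8 with DESeq2, 5 with limma on log2(FPKM + 1) or log2(FPKM + 0.1), 8 with voom weights and 1 to 5 without 1 library. Over all genes, DESeq2 called 2178 in the second comparison, where the main fit called 0. In the third it called 4414, where the main fit called 2179. With pan-epithelium scaling the third had 261 calls higher and 497 lower over all genes, against 1314 and 865 in the main fit. For these 2 comparisons the all-gene calls with voom weights or limma on FPKM are not given. Their numbers for the 10 genes therefore have no share beside them and are not read as a result about the 10. With the replicate block the number of the 10 genes called was 1, 0 and 1. Same-numbered mice of different groups correlated at -0.16 to 0.03, and mice of different numbers at -0.115 to 0.238. Each gene was centred on its group mean first, and with 3 mice a group these values cannot exclude a pairing. Calls over all genes were 306, 0 and 600 with the block against 1386, 0 and 2179. Over the alternatives these ranged over 281 to 5205, 0 to 2901 and 459 to 6142. The share of calls that were higher was 44.6% for MC against NC, 59.2% with library totals and 71% with pan-epithelium scaling, and for LRWE against NC 60.3% and, with pan-epithelium scaling, 34.4%. That scaling moved the all-gene median to 0.30, -0.81 and -0.51 in the 3 comparisons, and library totals moved it to 0.14, -0.24 and -0.10. Groups that do not overlap numbered 6, 4 and 9 in FPKM, against 6, 3 and 9.

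The values that turned sign were all uncalled. For MC against NC they were Smoc2 at -0.011 and Lrig1 at -0.14 with voom weights, with ranges of -0.10 to 1.21 and -0.32 to 0.38 without 1 library. For LRWE against MC, Lgr5 had -0.46 with pan-epithelium scaling, -0.022 on log2(FPKM + 0.1), -0.26 with the replicate block and -1.53 to 0.88 without 1 library. Ascl2 had -0.031 to 2.20 without 1 library, Axin2 0.13 with voom weights and Ephb2 -0.31 with pan-epithelium scaling. For LRWE against NC, Rnf43 had -0.015 with library totals, -0.46 with pan-epithelium scaling, -0.0023 with no filter, -0.011 on log2(FPKM + 1), -0.027 on log2(FPKM + 0.1) and -0.13 to 0.35 without 1 library. The cause was not tested. Lgr5 and Ascl2 rest on 0 to 130 counts per library after DSS, which limits their precision.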
